A study of Mus musculus with 8 samples.

Results

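Expression of the Gimap gene cluster was examined in HOXA9-immortalized mouse granulocyte-macrophage progenitors (iGMPs). The count files list 8 Gimap symbols, Gimap1, Gimap3, Gimap4, Gimap5, Gimap6, Gimap7, Gimap8 and Gimap9, out of 34199 gene symbols in all, and 7 of the 8 passed the filter on low counts that left 13080 genes for testing. Gimap3 did not pass. They were chosen by their measured levels and calls across the 4 groups in an earlier look at these data, so their levels and fold changes are given here as a description and carry no test.

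The 8 bulk RNA-seq libraries fall into 4 groups of 2. All cells are of C57Bl/6 origin, were grown with stem cell factor, and carry HOXA9 fused to the hormone-binding part of a mutant estrogen receptor (ER-HOXA9) together with a GFP reporter under the lysozyme promoter (Lys-GFP), and per the study's methods they are clonal lines with an IPTG-inducible shRNA vector. Uninduced cells were kept in 150 ng/ml estradiol and collected at 0 h. CAF-1 OFF cells received 500 µM IPTG for 48 h in estradiol, which switches on an shRNA against Chaf1b, a subunit of the histone chaperone CAF-1. The IPTG-treated control received the same dose for the same time, and per the study's methods its vector holds a spacer sequence in place of that shRNA. HOXA9 OFF cells were cultured for 48 h without estradiol, which inactivates the fusion protein, and no untreated group was collected at 48 h. The labels do not say which vector the uninduced and HOXA9 OFF cells carry, so whether they are the same lines as the CAF-1 OFF cells is not known here. The study's supplement speaks of 2 independent sub-clones for its RNA-seq, but neither it nor the labels say whether a replicate number stands for the same sub-clone in every group.

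Libraries held between 14044284 and 22423837 reads assigned to genes, and replicates differed by more than sampling noise in every group (chi-square per degree of freedom from 17.2 to 79.7, highest in HOXA9 OFF). The share of reads that fell outside genes was highest in IPTG-treated control replicate 1, at 14.6%, and 5.3% to 7.79% elsewhere. The targeted gene followed the labels. Chaf1b was at 96.8 and 100.3 CPM (counts scaled to effective library size) in uninduced, 95.1 and 101.7 CPM in the IPTG-treated control, 18.7 and 9.72 CPM in CAF-1 OFF, and 48.3 and 41 CPM in HOXA9 OFF. Hoxa9 RNA does not check the HOXA9 OFF labels, since estradiol withdrawal is meant to act on the fusion protein, and it was at 481.2 and 449.7 CPM in HOXA9 OFF, above the 234.4 and 234.8 CPM in uninduced. The progenitor markers Cd34, Kit and Ctsg were all present in uninduced cells, at mean levels of 1791.4, 625.2 and 3115.5 CPM.

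Gimap genes encode GTPases of the immunity-associated protein family. These proteins share a G domain of the AIG1 type, named after a disease-resistance protein of plants. Several of them sit on membranes of the endoplasmic reticulum, lysosome or other organelles, and they are best known from lymphocytes, where they support cell survival. GIMAP5 is needed for the survival of peripheral T cells, and its loss causes lymphopenia in rodents. GIMAP3 is its closest relative, GIMAP1 is required by mature T and B cells, GIMAP4 affects how fast T cells die, GIMAP6 binds GABARAPL2 of the autophagy machinery, GIMAP7 hydrolyses GTP as a dimer, and GIMAP8 carries several G domains in a row.

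In the mm9 build (NCBIM37) the 8 genes lie together on chromosome 6, from 48597233 to 48716518, a stretch of 119.3 kb. From left to right they start in the order Gimap8, Gimap9, Gimap4, Gimap6, Gimap1, Gimap7, Gimap5 and Gimap3, with 6 on the plus strand and Gimap6 and Gimap3 on the minus strand. Gimap8 spans 48597233 to 48610874, Gimap9 48626128 to 48629113, Gimap4 48634548 to 48642061 and Gimap6 48651581 to 48658224. Gimap1 spans 48668606 to 48702599 in its longest models, and these run over Gimap7 (48668620 to 48674635) and into Gimap5 (48696196 to 48704209), while Gimap3 (48715088 to 48716518) closes the cluster. In GENCODE vM1, 13.8% of Gimap1 exon bases are shared with exons of Gimap5, Gimap7 or the antisense gene Gm3345, against 6.4% for Gimap7 and 4.6% for Gimap5. Reads there can be set aside as ambiguous or pass to the neighbour, and the annotation and strand setting of the deposited counts are not given in the sources used here. Of all windows of 50 bases along the main transcript, 77.8% were found in no other Gimap transcript for Gimap3, 86.8% for Gimap5, 97.4% for Gimap7 and 100% for the other 5. Counts of Gimap3 and Gimap5 are thus the least certain by shared windows, and those of Gimap1 by shared exon bases.

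The 250 bases before the start of the longest coding transcript are printed for 4 members, because these genes span the range of the changes described further on: in CAF-1 OFF against uninduced, Gimap4 had the largest fold change, Gimap6 the largest gain in CPM, Gimap1 a smaller change that was called, and Gimap9 the smallest fold change. The stretches are chr6:48634327-48634576 (plus strand) for Gimap4, chr6:48658213-48658462 (minus strand) for Gimap6, chr6:48688803-48689052 (plus strand) for Gimap1 and chr6:48625878-48626127 (plus strand) for Gimap9, each written 5′ to 3′ on the strand of its gene. The Gimap1 stretch lies inside Gm3345 and inside the span of the longest Gimap1 models, which start further left, beside Gimap7. Capitals mark a match, on either strand, to any of 6 motifs.
Gimap4: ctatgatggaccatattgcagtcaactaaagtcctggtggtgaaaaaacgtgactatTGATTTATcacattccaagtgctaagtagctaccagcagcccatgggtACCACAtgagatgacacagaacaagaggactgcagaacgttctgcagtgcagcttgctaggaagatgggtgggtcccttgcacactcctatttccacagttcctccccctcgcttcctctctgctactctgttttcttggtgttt
Gimap6: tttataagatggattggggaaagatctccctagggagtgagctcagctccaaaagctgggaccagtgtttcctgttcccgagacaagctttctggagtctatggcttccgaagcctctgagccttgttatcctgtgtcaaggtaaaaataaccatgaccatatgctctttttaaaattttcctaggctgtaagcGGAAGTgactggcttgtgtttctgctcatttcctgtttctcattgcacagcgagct
Gimap1: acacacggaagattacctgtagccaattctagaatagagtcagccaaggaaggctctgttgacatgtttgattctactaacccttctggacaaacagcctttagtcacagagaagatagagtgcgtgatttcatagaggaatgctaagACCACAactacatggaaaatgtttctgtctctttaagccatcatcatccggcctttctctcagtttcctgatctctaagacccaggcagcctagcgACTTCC
Gimap9: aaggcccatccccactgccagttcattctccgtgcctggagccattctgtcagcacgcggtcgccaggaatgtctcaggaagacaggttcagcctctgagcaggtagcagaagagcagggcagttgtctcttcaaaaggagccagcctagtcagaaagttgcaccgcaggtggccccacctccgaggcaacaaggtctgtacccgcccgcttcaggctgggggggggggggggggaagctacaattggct

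The motifs were GGAAGT and CCGGAAGT (ETS factors, the first contained in the second), TGTGGT (RUNX), TTGCNNAA (C/EBP), AGATAA for the family of GATA factors, and TGATTTAT (HOX with PBX), and they were chosen with results of these data known. GGAAGT was found before Gimap6 (at position -56 from the transcript start), before Gimap1 and, at 2 places, before Gimap5, and 19.9% of 22110 promoters of the same length hold it. TGTGGT was found before Gimap4, Gimap1 and Gimap7, against 12.5% of all promoters. TGATTTAT was found before Gimap4 and in 0.7% of all promoters. CCGGAAGT (3.6% of promoters), TTGCNNAA (9.0%) and AGATAA (9.1%) were found in none of the 8 windows, and the Gimap8, Gimap9 and Gimap3 windows held no match to any of the 6. A match of letters is not a binding site, and none was tested here.

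In uninduced iGMPs the cluster was already transcribed, at a summed level of 119.9 and 126.6 CPM, and the members differed widely. Levels compared between genes are given per kilobase of the main transcript. Gimap9 was the most abundant (36.6 and 40.9 CPM per kb), followed by Gimap1 (18.7 and 19.8), Gimap6 (10.1 and 9.42) and Gimap5 (3.17 and 2.83), and the 2 libraries of neighbours in this order did not overlap. Gimap8 (0.487 and 0.913 CPM per kb), Gimap4 (0.615 and 0.496) and Gimap7 (0.246 and 0.641) lay far below and overlapped each other, so their order was not resolved. Gimap3 had no read in either uninduced library and 2 reads in all 8 libraries, both in CAF-1 OFF replicate 1.

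In CAF-1 OFF cells the summed level of the cluster was 266.5 and 227.4 CPM, above both uninduced libraries and both libraries of the IPTG-treated control (113.5 and 134.5 CPM). Of the 7 members tested, 4 were called higher than uninduced (false discovery rate, FDR, under 0.05 and at least 1.5-fold) and none lower, where 10.5% of all 13080 genes were called higher and 3.50% lower. Since this comparison helped to choose the genes, nothing is read from that count. In bulk RNA, more cells of a type and more RNA per cell cannot be told apart.

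Gimap4 had the largest change. It was at 1.11 and 0.898 CPM in uninduced, 0.565 and 1.23 CPM in the IPTG-treated control, and 15 and 17.1 CPM in CAF-1 OFF. Both CAF-1 OFF libraries thus stood far above all 4 control libraries, and the fitted difference was 15.9-fold (log2 fold change 3.99 ± 0.39 SE) against uninduced and 17.6-fold (4.14 ± 0.41) against the IPTG-treated control. Gimap8, the gene with several G domains, was at 1.78 and 3.34 CPM in uninduced, 0.707 and 1.96 CPM in the IPTG-treated control, and 15.4 and 10.3 CPM in CAF-1 OFF. Both CAF-1 OFF libraries were again above all 4 control libraries. The log2 fold change of Gimap8 was 2.32 ± 0.52 against uninduced and 3.24 ± 0.56 against the IPTG-treated control.

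Gimap6, the partner of GABARAPL2, gained the most reads. It was at 32 and 29.9 CPM in uninduced, 27.3 and 32.9 CPM in the IPTG-treated control, and 84.3 and 79.7 CPM in CAF-1 OFF, a 2.65-fold difference (log2 fold change 1.41 ± 0.28). Gimap1 was at 27.9 and 29.5 CPM in uninduced and 52.2 and 45 CPM in CAF-1 OFF, with 29.4 and 33.4 CPM in the IPTG-treated control, a 1.69-fold difference (0.76 ± 0.17). In both genes every CAF-1 OFF library was above every control library.

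The other 3 tested members were not called in this fit, although Gimap5 was called against both controls when either HOXA9 OFF library was left out or when only the compared groups were fitted. Gimap5, the survival factor of peripheral T cells, was at 6.19 and 5.52 CPM in uninduced and 13.2 and 9.72 CPM in CAF-1 OFF (log2 fold change 0.97 ± 0.44). Gimap9 was at 50.6 and 56.6 CPM in uninduced and 85.3 and 64.9 CPM in CAF-1 OFF, a difference of 1.40-fold that lies under the fold threshold (0.49 ± 0.16). The CAF-1 OFF libraries were above the uninduced libraries in both genes. Gimap7 rested on 5 to 21 reads in each library of the uninduced, IPTG-treated control and CAF-1 OFF groups, whose values overlapped (0.312 and 0.813 CPM in uninduced, 1.11 and 0.68 CPM in CAF-1 OFF).

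Against the IPTG-treated control the same 4 members, Gimap1, Gimap4, Gimap6 and Gimap8, were called higher (9.56% of all genes higher, 3.20% lower). The 2 comparisons share the CAF-1 OFF libraries. The median log2 fold change of the 7 tested members was 0.97 against uninduced and 0.89 against the IPTG-treated control, beside 0.01 over all tested genes in both. These calls rested on all libraries: with any 1 of the 4 compared libraries left out, Gimap4 was the only member called in either comparison, and at an FDR under 0.01 with at least 2-fold it was again the only one. Without IPTG-treated control replicate 2 the log2 fold change against that control moved to 4.81 for Gimap4 and to 4.17 for Gimap8.

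**Figure D1:**
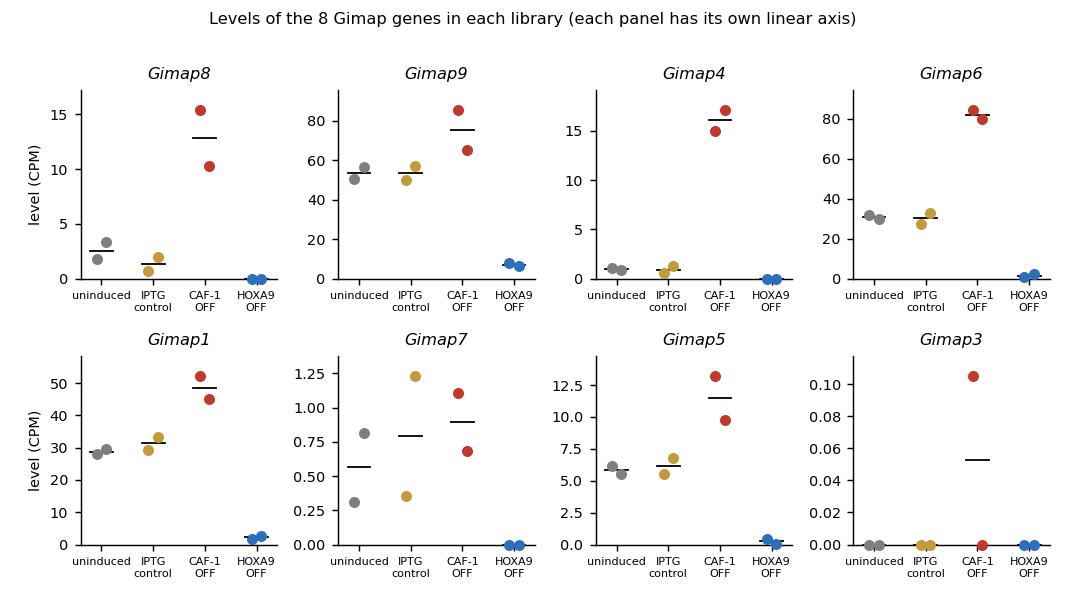
Level in CPM (y axis, linear, with its own range in each panel) of the 8 Gimap genes in the 2 libraries of each group (points) with the group mean (line), in chromosome order. Both CAF-1 OFF points lie above all control points except for Gimap7 and Gimap3, and both HOXA9 OFF points lie below all control points except for Gimap3.

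In HOXA9 OFF cells the summed level of the cluster was 10.8 and 11.3 CPM, against 119.9 and 126.6 CPM in uninduced. All 7 tested members were called lower (22.1% of all genes lower, 25.2% higher, or 2886 and 3293 genes, which became 3701 and 2715 with scaling by library size alone), a count from which nothing is read for the same reason as above. Gimap4, Gimap7 and Gimap8 had no read in either HOXA9 OFF library, which allows at most 0.163 and 0.149 CPM (3 counts) there. Against that limit in the smaller library, Gimap8 was at least 15.7-fold, Gimap4 at least 6.18-fold and Gimap7 at least 3.45-fold lower than in uninduced. For Gimap4 and Gimap7 the size of these bounds is set by how few reads the uninduced cells had.

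The abundant members fell to low but measurable levels. Gimap6 was at 0.76 and 2.18 CPM in HOXA9 OFF, 20.7-fold lower than in uninduced (log2 fold change -4.37 ± 0.35), and Gimap1 at 1.84 and 2.63 CPM, 12.8-fold lower (-3.67 ± 0.20). Gimap9 kept the most, at 7.76 and 6.45 CPM, and was 7.55-fold lower (-2.92 ± 0.18). Gimap5 was at 0.434 and 0.0496 CPM, which is 8 reads and 1 read, and its fitted log2 fold change of -4.60 ± 0.59 moved to -6.71 without HOXA9 OFF replicate 1 and to -3.73 without replicate 2. Gimap6 moved to -5.33 without replicate 2, and Gimap7 was no longer called without uninduced replicate 2. Every HOXA9 OFF library was below every uninduced and IPTG-treated control library in all 7 genes, and the median log2 fold change of the 7 was -4.60 beside 0.01 over all tested genes, or -3.67 with the 3 genes at 0 set to their bounds.

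All 7 tested members were called higher in CAF-1 OFF than in HOXA9 OFF, again a comparison between groups that entered the choice of the genes, so nothing is read from the count (22.2% of all genes higher, 21.4% lower, or 2898 and 2797 genes, which became 3949 and 2064 with scaling by library size alone). The difference was 54.8-fold for Gimap6 (log2 fold change 5.78 ± 0.36), 47.3-fold for Gimap5, 21.6-fold for Gimap1 and 10.6-fold for Gimap9. It was at least 98.7-fold for Gimap4, at least 78.8-fold for Gimap8 and at least 5.48-fold for Gimap7, against 3 counts in the smaller HOXA9 OFF library. Gimap5, with 8 reads and 1 read in HOXA9 OFF, moved from a log2 fold change of 5.56 to 7.66 without HOXA9 OFF replicate 1 and to 4.69 without replicate 2, and Gimap6 moved to 6.73 without replicate 2. This comparison shares its libraries with the ones before.

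In the IPTG-treated control the summed level of the cluster (113.5 and 134.5 CPM) lay on both sides of that in uninduced cells. No member was called in this comparison, and the log2 fold change was 0.13 ± 0.17 for Gimap1, -0.04 ± 0.27 for Gimap6, -0.01 ± 0.16 for Gimap9, 0.08 ± 0.44 for Gimap5 and -0.15 ± 0.41 for Gimap4. Gimap8 (-0.92 ± 0.55) and Gimap7 (0.50 ± 0.77) were the least precise. Without IPTG-treated control replicate 2, Gimap4 moved to -0.82 and Gimap8 to -1.85, and Gimap7 moved to -0.66 without that library and to 1.34 without uninduced replicate 2. No gene at all was called by edgeR in this comparison (0% of 13080), where 100 genes had an unadjusted p under 0.05 and DESeq2 called 5. With no difference at all, far more than 100 of 13080 genes should have such a p, so the fit was conservative here. The lack of calls is therefore a weak measure of any IPTG effect.

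**Figure D2:**
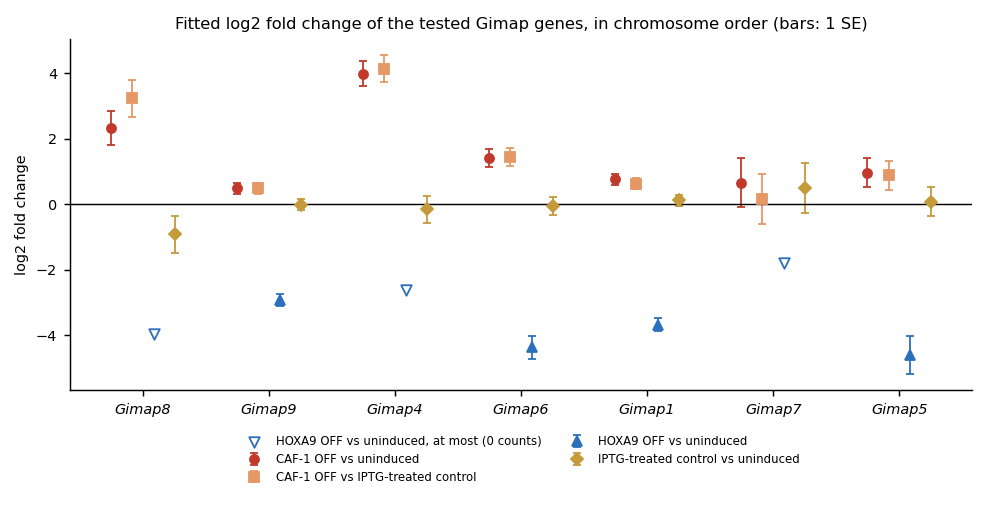
Fitted log2 fold change (y axis, bars 1 SE) of the 7 tested Gimap genes in chromosome order for 4 comparisons, with open triangles at the bound for genes with 0 counts in HOXA9 OFF. CAF-1 OFF values lie between 0.16 and 4.14, and HOXA9 OFF values at or under -2.92 where reads allowed a fit.

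The make-up of the cluster's reads changed along with its level. Gimap9 gave 42.2% and 44.7% of the reads of the 8 genes in uninduced, 32% and 28.5% in CAF-1 OFF, and 71.9% and 57% in HOXA9 OFF. Gimap6 gave 26.7% and 23.6% in uninduced, 31.6% and 35% in CAF-1 OFF, and 7.04% and 19.3% in HOXA9 OFF. Gimap4 went from 0.928% and 0.709% in uninduced to 5.63% and 7.54% in CAF-1 OFF. Per kilobase, Gimap4 (8.29 and 9.47 CPM per kb) passed Gimap5 (6.74 and 4.98) in CAF-1 OFF, whereas it lay below it in uninduced. Gimap9, Gimap1 and Gimap6 kept their order in all 4 groups.

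**Figure D3:**
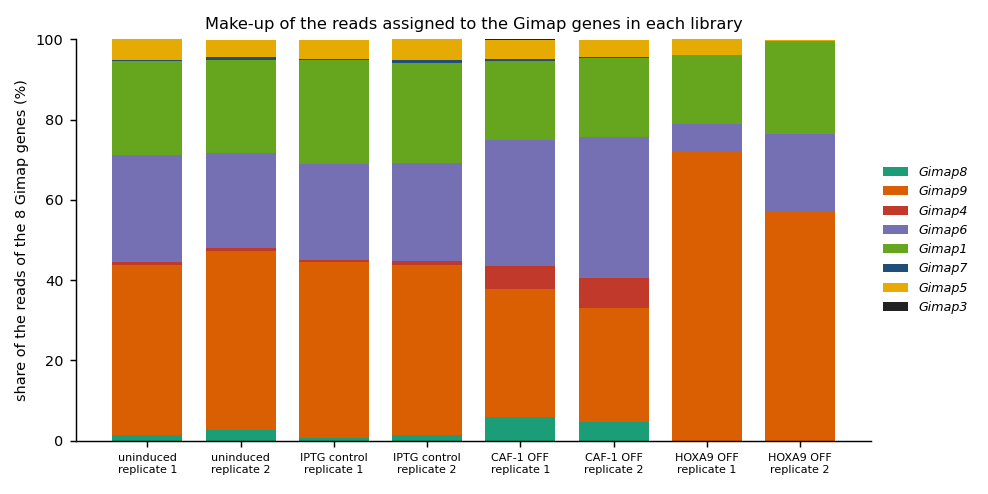
Share in percent (y axis) of each Gimap gene among the reads assigned to the 8 genes, 1 stacked bar per library. The Gimap9 part is 42.2% and 44.7% in uninduced, shrinks in CAF-1 OFF, where the Gimap4 and Gimap8 parts are larger, and is the largest part in HOXA9 OFF.

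Genes beside the cluster, which played no part in choosing the members, were tested for comparison. Within 500 kb of the outer ends lie 30 other genes of the files, of which 12 passed the filter. The nearest on the left, AI854703 at 13.5 kb, had 1 read in 1 library. Of the 12, 3 were called higher in CAF-1 OFF than in uninduced and none lower, beside 10.5% higher and 3.50% lower among all genes, and all 3 lie on the right side of the cluster. Tmem176b, a membrane protein gene at 67.3 kb and the nearest gene on the right, was at 35.7 and 50.8 CPM in uninduced and 151.5 and 132.5 CPM in CAF-1 OFF (log2 fold change 1.72 ± 0.28, FDR 0.00905). Its paralog Tmem176a, at 75 kb, was at 15.6 and 18 CPM in uninduced and 55.8 and 52.5 CPM in CAF-1 OFF (1.69 ± 0.21, FDR 0.00457). Both were also called higher than in the IPTG-treated control, with log2 fold changes of 1.73 and 1.63. Abp1, a copper amine oxidase gene at 128.7 kb, was at 0.623 and 0.299 CPM in uninduced and 2.47 and 2.51 CPM in CAF-1 OFF (2.42 ± 0.57, FDR 0.0301). It passed the filter on low counts only through CAF-1 OFF, and Tmem176a and Tmem176b lie side by side. Nothing is read from the count of 3 for these reasons.

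These calls also changed with single libraries and with the fit. Abp1 moved to 3.02 without uninduced replicate 1, and DESeq2 did not call it in CAF-1 OFF against uninduced. Gpnmb (log2 fold change 5.17) was not called in CAF-1 OFF by the quasi-likelihood fit over all 8 libraries, but was called without a filter on low counts, with a replicate block, with only the compared groups, by DESeq2, by edgeR's exact test, and when either HOXA9 OFF replicate was left out. The log2 fold change of Gpnmb moved to 4.15 without CAF-1 OFF replicate 2 and to 5.99 without uninduced replicate 2. Without uninduced replicate 1 none of the 12 was called in CAF-1 OFF, without uninduced replicate 2 or CAF-1 OFF replicate 1 Tmem176a and Tmem176b were, and without CAF-1 OFF replicate 2 Tmem176a alone was. Against the IPTG-treated control, Tmem176a and Tmem176b were called without CAF-1 OFF replicate 1, and Tmem176a alone was called without either replicate of that control or without CAF-1 OFF replicate 2.

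On the left side, Zfp775 at 24 kb and Repin1 at 48.2 kb, both zinc finger genes, were not called in CAF-1 OFF. Their log2 fold changes were -0.12 ± 0.19 (FDR 0.687) and -0.22 ± 0.12 (FDR 0.232). In HOXA9 OFF both fell, Repin1 from 41.7 and 45.1 CPM to 9.98 and 10.7 CPM (log2 fold change -2.07, FDR 2.07e-05) and Zfp775 from 8.9 and 9.84 CPM to 3.42 and 3.82 CPM (-1.37, FDR 0.000704). Tmem176b (-1.37, FDR 0.00398) and Tmem176a (-1.11, FDR 0.00291) fell as well. Abp1, with no read in HOXA9 OFF, was at least 2.83-fold lower, a bound whose size is set by its few reads in uninduced (mean 0.461 CPM, SD 0.229). Sspo went from 0.89 and 0.77 CPM to 0.163 and 0 CPM, and was no longer called without uninduced replicate 1. In all, 6 of the 12 flanking genes were lower in HOXA9 OFF, beside 22.1% of all genes.

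Another 3 of the 12 flanking genes rose in HOXA9 OFF, a share close to the 25.2% of all genes. Lrrc61 went from 9.21 and 7.32 CPM to 21.9 and 15.6 CPM (FDR 0.00354). Zfp467 was at 3.03 and 1.11 CPM in uninduced and at 23.2 and 5.01 CPM in HOXA9 OFF (FDR 0.0152), and was no longer called without HOXA9 OFF replicate 1 or uninduced replicate 2. Gpnmb, a glycoprotein gene of macrophages and other cells, differed widely between the HOXA9 OFF replicates, at 78.8 and 2791.6 CPM, with 0.712 and 1.8 CPM in uninduced (log2 fold change 10.14, FDR 0.00236, and 5.96 without HOXA9 OFF replicate 2). Gm3345, an antisense gene inside the cluster, had 1 and 4 reads in uninduced, 16 and 9 in CAF-1 OFF, 1 and 0 in the IPTG-treated control and 0 in HOXA9 OFF, and did not pass the filter on low counts. Without that filter it was called higher in CAF-1 OFF than in HOXA9 OFF by edgeR (FDR 0.0079), as it was in 7 of the 8 fits that left out 1 library. Igf2bp3, Tra2a and 2410003K15Rik, 307.3 to 477.4 kb to the right, were called in none of the comparisons with TMM scaling and all libraries. With scaling by library size alone, Tra2a (-0.65) and 2410003K15Rik (-0.69) were called lower in HOXA9 OFF than in uninduced, and 2410003K15Rik (-0.66) also was without uninduced replicate 2.

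**Figure D4:**
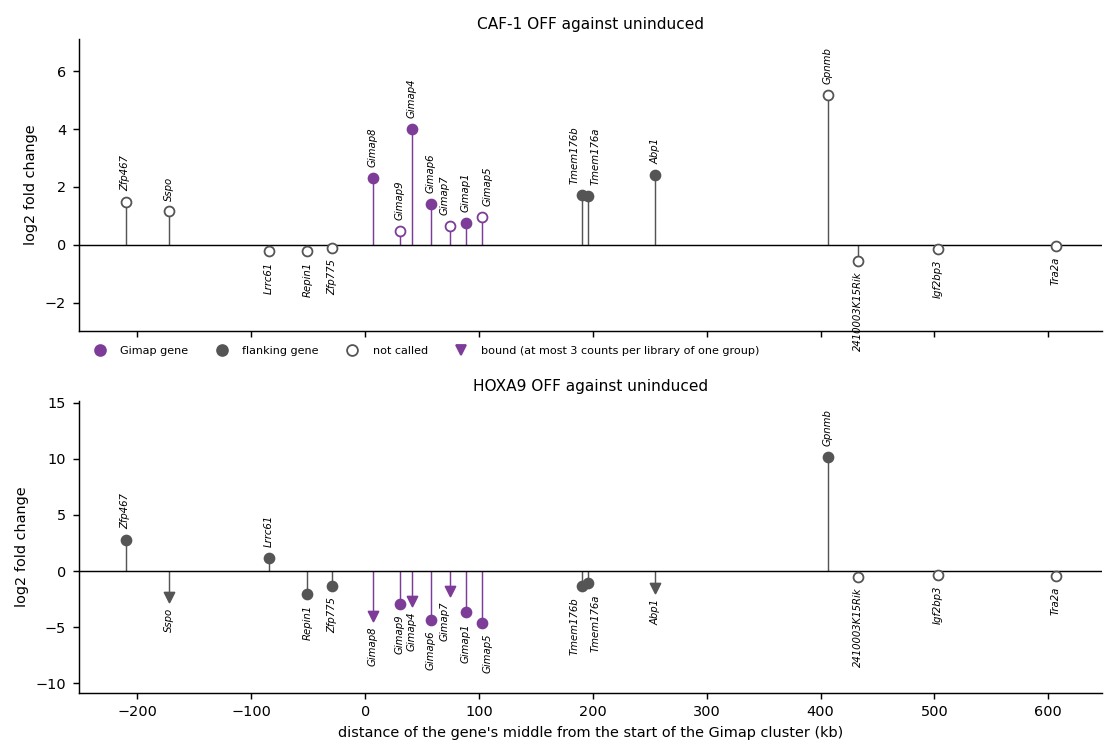
Log2 fold change (y axis) against distance of the gene's middle from the cluster start in kb (x axis) for Gimap genes (purple) and flanking genes (grey), filled where called, triangles where a group had at most 3 counts per library. In CAF-1 OFF the called genes are Gimap8, Gimap4, Gimap6, Gimap1, Tmem176b, Tmem176a and Abp1, and in HOXA9 OFF all 7 Gimap genes are down along with 6 flanking genes.

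For the gene lists that follow, the background over all tested genes was 10.5% higher and 3.50% lower for CAF-1 OFF, and 25.2% higher and 22.1% lower for HOXA9 OFF, each against uninduced. Some list genes passed the filter on low counts only through a group where they were high, so the counts per list carry no test. Of 33 different list genes called in CAF-1 OFF, 6 stayed called whichever of the 4 compared libraries was left out, and of 59 called in HOXA9 OFF, 47 did. The fold change moved by over 1.5 times with 1 of these libraries left out for 7 of the 33 and 24 of the 59 genes. Among 7 reported partners, which include the survival and death factors of the BCL2 family, none was called in CAF-1 OFF, and Bcl2l11, which encodes the death factor BIM, was the one called in HOXA9 OFF (17.7 to 69 CPM, log2 fold change 1.97, FDR 0.00537, and 1.13 without HOXA9 OFF replicate 2). The partner of GIMAP6, Gabarapl2, was at a mean of 12.7 CPM in uninduced, 11.8 CPM in CAF-1 OFF (-0.11 ± 0.16) and 18.2 CPM in HOXA9 OFF (0.51 ± 0.16), and was called in neither. Of its ATG8 family of autophagosome proteins, 0 of 5 were called in CAF-1 OFF and 3 of 5 rose in HOXA9 OFF: Map1lc3a (1.5, FDR 0.00299), Gabarap (1.33, FDR 0.000115) and Map1lc3b (1.15, FDR 9.75e-05). The family's median log2 fold change was 0.02 in CAF-1 OFF and 1.15 in HOXA9 OFF.

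Another family of immune GTPases consists of those induced by interferon. Of 18 in the files 13 were tested, of which 6 were called higher in CAF-1 OFF and 11 in HOXA9 OFF, and none lower. Iigp1, Mx1, Mx2 and Gvin1 passed the filter only through HOXA9 OFF, which partly fixed the count of 11. Nothing is read from it. The median log2 fold changes of the 13 were 1.76 and 3.68. They were 0.82 and 3.35 with genes at or under 3 counts per library of a group set to their bounds. Gbp2 was at 0.089 and 0 CPM in uninduced, 1.32 and 3.61 CPM in CAF-1 OFF and 13.3 and 15.6 CPM in HOXA9 OFF, and Gbp5 at 0 and 0.0428, 0.737 and 1.52, and 1.14 and 1.59 CPM. Neither was called in CAF-1 OFF without either uninduced replicate or without CAF-1 OFF replicate 2. Others called in CAF-1 OFF were Irgm2 (2.9 to 12.8 CPM, log2 fold change 2.14, FDR 0.00245) and Gbp7 (10.3 to 42.7 CPM, 2.06, FDR 0.00556). In HOXA9 OFF, Mx1 was at 4.07 and 9.08 CPM, against 0 and 0.128 CPM in uninduced, and Iigp1, with no read in uninduced, was at least 14.5-fold higher.

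Of 11 genes of lymphoid progenitors tested, CAF-1 OFF had 5 called higher and none lower. Among them were Dntt, the terminal transferase of early lymphocytes (1.5 to 14.1 CPM, log2 fold change 3.23, FDR 0.00344), Thy1 (16.3 to 115.2 CPM, 2.82, FDR 0.0117) and Notch1 (1.15, FDR 0.00915). Thy1 moved to 2.10 without CAF-1 OFF replicate 1 and was not called without either uninduced replicate. In HOXA9 OFF 6 were lower and 3 higher. Rag1 and Rag2 encode the recombinase of antigen receptor genes. Rag1 was at 2.27 and 8.3 CPM in uninduced and had no read in HOXA9 OFF, while Rag2 went from 41.2 and 66 CPM to 0.163 and 0.0992 CPM and Thy1 from 20.7 and 11.9 CPM to 0.109 and 0 CPM. Dntt, with no read in HOXA9 OFF, was at least 9.24-fold lower, whereas Notch1 (137.5 CPM) rose. Of 11 lymphoid transcription factors tested, Ets1 (2.91, FDR 0.0421), Foxo1 (1.32, FDR 0.0249) and Runx1 (0.81, FDR 0.00543) were higher in CAF-1 OFF. Ets1 was at 1.79 and 13.1 CPM there, against 1.16 and 0.813 CPM in uninduced, and its log2 fold change was 0.86 and not called without CAF-1 OFF replicate 2. In HOXA9 OFF 4 were higher, with Klf2 (6.24) ahead of Ets1 (4.23) and Ikzf3 (3.67), and 3 were lower, with Ebf1 (97.4 to 1.16 CPM) ahead.

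For markers of other cell types, the part in the levels of the Gimap genes was not tested. Of 14 T cell markers, Cd3e, Cd3g, Cd8a and Cd2 had no read in any group, 5 could be tested, and the summed level was from 11.1 to 25.4 CPM in uninduced, 27.6 to 27.9 CPM in CAF-1 OFF, 11 to 24.4 CPM in the IPTG-treated control and 91.2 to 198.9 CPM in HOXA9 OFF, where Cd28 alone gave 88.2 and 189.4 CPM. Cd5 (1.44 to 7.5 CPM, FDR 0.0152) was higher in CAF-1 OFF, and in HOXA9 OFF Cd28 was higher and Lck lower. Of 8 B cell markers 5 were tested, with 1 higher in CAF-1 OFF (Cd79a, 2.18 to 15.4 CPM) and 3 higher and 1 lower in HOXA9 OFF, and their sums were 44.2 to 48.2 CPM in uninduced, 50.9 to 52.1 CPM in CAF-1 OFF, 37.9 to 51.7 CPM in the IPTG-treated control and 67 to 138.3 CPM in HOXA9 OFF. Of 8 NK cell markers 4 were tested, and Prf1 (0.61 to 13.4 CPM) and Nkg7 (9.7 to 32.9 CPM) were higher in CAF-1 OFF, with Ncr1 and Gzma at 0 in every group and sums of 8.34 to 14 CPM in uninduced, 45.1 to 50 CPM in CAF-1 OFF, 9.51 to 11.2 CPM in the IPTG-treated control and 12.7 to 14.2 CPM in HOXA9 OFF. In HOXA9 OFF Prf1 and Klrd1 were higher. Of the endothelial markers, Tek and Emcn were at 0 in every group, and Cdh5, the cadherin of endothelial junctions, had no read outside CAF-1 OFF, where it was at 0.474 and 3.08 CPM. The sums of the 8 endothelial markers were 229.7 to 252.1 CPM in uninduced, 350.9 to 392.6 CPM in CAF-1 OFF, 240.9 to 253.9 CPM in the IPTG-treated control and 360.7 to 372 CPM in HOXA9 OFF. Pecam1 alone gave most of each sum, with means of 240.1, 366.7, 247 and 339 CPM in these groups. Of 4 tested, Tie1 and Pecam1 were called higher in CAF-1 OFF and Vwf in HOXA9 OFF, where Vwf was at 0.651 and 53.6 CPM and was not called without replicate 2 (log2 fold change 6.78 with both and 1.42 without it). In CAF-1 OFF, Cd5, Nkg7 and Tie1 each lost their call whichever of the compared libraries was left out.

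Of 10 neutrophil markers, 7 were higher in CAF-1 OFF and 10 in HOXA9 OFF, and their summed level was 181 to 241.9 CPM in uninduced, 191.5 to 230.5 CPM in the IPTG-treated control, 1589.4 to 2735.3 CPM in CAF-1 OFF and 7918.4 to 11488.2 CPM in HOXA9 OFF. In CAF-1 OFF the collagenase Mmp8 led (50.8 to 1514.1 CPM, log2 fold change 4.90, FDR 0.00118), followed by S100a9 (4.58), S100a8 (3.88) and Ngp (2.21), and in HOXA9 OFF Ltf (0.37 to 1204.6 CPM, 11.64, FDR 8.53e-06), S100a9 (10.67), Camp (10.13) and Ngp (10.10). Of 8 markers of granulocyte-macrophage progenitors, 1 was higher in CAF-1 OFF (Elane, 361 to 1100.8 CPM, FDR 0.0334) and 5 were lower in HOXA9 OFF, among them Flt3 (297.3 to 5.85 CPM), which is also on the lymphoid progenitor list, Cd34 (1791.4 to 246.6 CPM), Ctsg and Kit. Of 7 erythroid and megakaryocyte markers tested, 4 were higher in CAF-1 OFF (Pf4, Itga2b, Gp9 and Car2) and 4 higher and 1 lower in HOXA9 OFF, with sums of 94.9 to 108.1 CPM in uninduced, 326 to 332.3 CPM in CAF-1 OFF, 102.2 to 104.9 CPM in the IPTG-treated control and 150.6 to 152.3 CPM in HOXA9 OFF. The part of these changes in the levels of the Gimap genes was not tested.

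**Figure D5:**
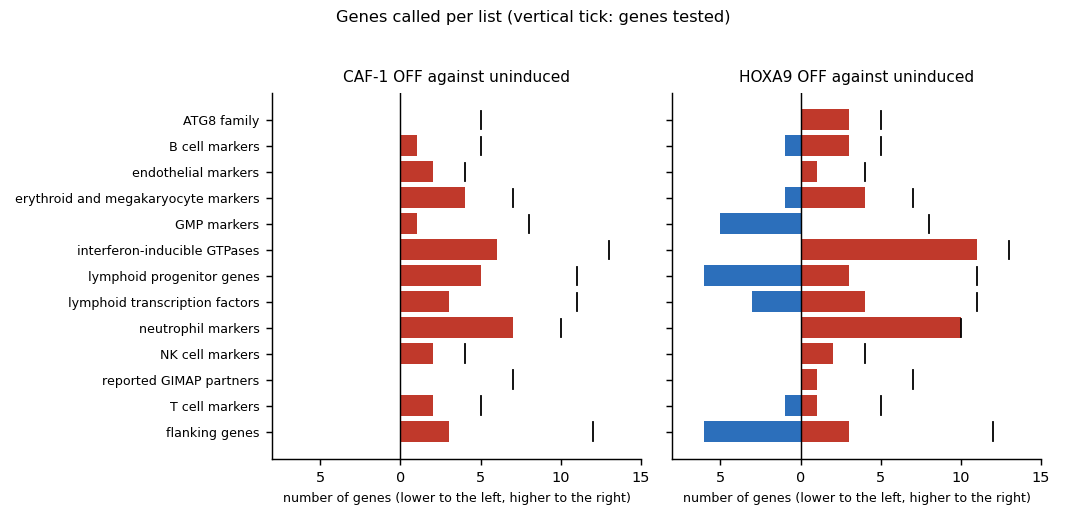
Number of genes (x axis) called higher (red, to the right) and lower (blue, to the left) per list, with a vertical tick at the number tested. The interferon-inducible GTPases and neutrophil markers have 6 and 7 genes higher in CAF-1 OFF and 11 and 10 in HOXA9 OFF, while lymphoid progenitor genes have 5 higher in CAF-1 OFF and 6 lower in HOXA9 OFF.

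Across the 8 libraries, which share their group structure, the members' log2 CPM values (prior count of 2) followed each other with Pearson's r from 0.813 (Gimap4 with Gimap7) to 0.991 (Gimap1 with Gimap9), as a description. The genes outside the cluster most like each member were Car2, Nr0b2 and Pla2g12a for Gimap1 (r from 0.997 to 0.998), Hirip3, Ctnnal1 and Prdm11 for Gimap5, Kctd17, Armc9 and Ablim1 for Gimap6, Cldn12, Mc1r and Enpp6 for Gimap8, and Zfp940, Hlf and Cep76 for Gimap9, all with r of at least 0.990. Car2, carbonic anhydrase, was at a mean of 72.4 CPM in uninduced, 115.1 CPM in CAF-1 OFF and 2.55 CPM in HOXA9 OFF. Pearson's r does not measure the size of a change, and other genes named here changed far less than their member. Cldn12, named for Gimap8, was at 21.7 and 23.7 CPM in uninduced and 12.3 and 12.2 CPM in HOXA9 OFF. Zfp940, named for Gimap9, was at 4.9 and 4.79 CPM and at 2.06 and 1.83 CPM. For Gimap4 (Gm11998, Mcpt8 and Col4a2) and Gimap7 (Rptor, Mcart1 and Plcg1) none of the 3 names stayed when the prior count was 0.5, so likeness at such low counts rests on the prior. For Gimap5 and Gimap8, 2 of the 3 names stayed.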

How the data were processed

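RNA from 8 iGMP cultures was sequenced. The authors used STAR for alignment to mm9 and HTSeq for counting per gene, as the study's methods state. The deposited values are raw counts per gene symbol, 1 column per library, without normalization. The counter's 5 summary lines were kept out of library sizes and tests. Groups and replicate numbers came from the labels. Counts were analysed with edgeR 4.0.16 (R 4.3.3): filterByExpr on the groups, TMM scaling (factors 0.894 to 1.059), and 1 quasi-likelihood fit over all 8 libraries with Benjamini-Hochberg adjustment over 13080 genes, tested first on simulated counts. A call needed an FDR under 0.05 and 1.5-fold. The biological coefficient of variation was 18.9%. CPM used TMM-scaled library sizes, and standard errors came from the F statistic. Folds against a group with no count, and bounds in medians and plots for groups at or under 3 counts per library, used 3 counts in the smaller library, a limit of counting error only. Gene positions and promoters came from NCBIM37 with GENCODE vM1, in which 33223 of 34199 symbols matched. Named were the 8 members, called or nearest flanking genes, up to 4 called genes with the largest change per list and comparison, and the 3 genes most like each member. Some genes that this rule names are not reported here. Members, lists and motifs were chosen with earlier results of these data known. Alternatives are described in the closing section.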

Additional observations from a re-analysis of the deposited data

How the results depend on the processing

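No called difference of a member or flanking gene changed sign under the alternatives run, whereas several uncalled ones did, among them Gimap7 (CAF-1 OFF against the IPTG-treated control from 0.16 to -0.48, and that control against uninduced from 0.50 to -0.66) and Zfp467 (CAF-1 OFF against HOXA9 OFF from -1.28 to 0.20) with 1 library left out. With 4 members called in CAF-1 OFF against uninduced and 4 against the IPTG-treated control, an FDR under 0.01 with 2-fold left 1 in each, and leaving out 1 library at a time gave 1 to 5 in each, where a lone library was assumed to vary like the other groups. Of 12 flanking genes, 3 were called in CAF-1 OFF against uninduced, with 0 to 4 when 1 library was left out. Against the IPTG-treated control 3 were called, with 5 when the fit held the compared groups alone, 1 at the stricter threshold and 1 to 4 when 1 library was left out. Called members in HOXA9 OFF numbered 7, and 6 to 7 under the alternatives, where Gimap7 was lost. Same-numbered libraries deviated together among uninduced, IPTG-treated control and HOXA9 OFF (r from 0.30 to 0.48) but not with CAF-1 OFF (r from -0.04 to 0.08), so the numbers were not taken to pair the samples across all groups, and with a replicate block 4, 4, 7, 7 and 0 members were called in the 5 comparisons in the order of the report, and 4, 4, 9 and 8 flanking genes. Of 554 alternative log2 fold changes of members, 522 stayed within 1 SE, and of 759 of flanking genes 717 kept their call or lack of one. With scaling by library size alone the median over all genes in HOXA9 OFF went from 0.01 to -0.18 on the log2 scale, while the 7 members stayed lower. With 2 libraries per group, depth limits Gimap3 and Gimap7 in every group, Gimap4 and Gimap8 outside CAF-1 OFF, and Gimap5 in HOXA9 OFF.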
